A study of Sus scrofa and Rattus norvegicus with 8 samples.

Results

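The transcription of heat-producing genes was examined in white adipose tissue of the pig, in the upper layer of backfat of 6 adult female Bama pigs aged 2 years. The genes were 10 that were listed by symbol without using their levels: the uncoupling proteins UCP2 and UCP3, the regulators PPARGC1A, PPARGC1B, PRDM16, EBF2 and DIO2, the lipid droplet gene CIDEA, and the futile-cycle genes CKB and ATP2A2. Of these, 9 had a value among the 25880 gene IDs of the pig table, of which 14844 were named nuclear genes. The ID of CIDEA matched no row of that table, and CIDEA was not analysed here. The pigs shared breed, sex, age and depot and none was treated, so the data hold 1 group and no contrast within it. The series also holds 2 libraries of inguinal white fat from SD rats, each a pool, whose gene IDs could not be paired with names and which were not used here. The pigs are called pig 1 to pig 6 after their replicate numbers in the labels.

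Thermogenic fat releases the energy of the mitochondrial proton gradient as heat. In brown and beige adipocytes of most mammals this is done by UCP1, which lets protons leak back across the inner membrane, and cold drives it through noradrenaline, beta-adrenergic receptors, cAMP and the coactivator encoded by PPARGC1A. The UCP1 gene of pigs is known to be disrupted, and it has no ID in the name table, so no value was read for it. Heat can also come from cycles that spend ATP without net work, such as creatine phosphorylation with creatine kinase B (CKB) and calcium pumping into the endoplasmic reticulum by SERCA2 (ATP2A2).

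Levels are in TPM, a length-corrected share of a fixed total per library, so levels of different genes can be compared. The named nuclear genes held 24.1 to 26.3% of that total in pigs 1, 2, 3 and 6, but 3.34% in pig 4 and 4.73% in pig 5. The members' levels are therefore given as deposited and as rescaled TPM, in which the named nuclear genes of each library sum to 1000000, and the levels of all other genes as rescaled TPM alone. The factor was 3.80 to 4.15 in the 4 pigs, 29.9 in pig 4 and 21.1 in pig 5. Mitochondrially encoded genes held 0.209% in pig 4 and 0.298% in pig 5 against 10.8 to 21.2% in the other 4, and 10126 and 10556 named genes were over 0.1 TPM there against 12736 to 12884. Between libraries, Pearson's r of log2(rescaled TPM + 1) across 12130 genes, which are not independent replicates, was 0.895 to 0.976, so no library repeated another. TPM keep no read counts, so the depth behind each value is unknown. The adipocyte markers were abundant, with ADIPOQ at 2437 to 3746 and FABP4 at 10369.8 to 28926 rescaled TPM, and 12 of 12 were over 0.1 TPM in all 6 pigs. In bulk tissue, fewer cells of a type and less RNA per cell cannot be told apart.

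The 2 uncoupling proteins lie beside each other on chromosome 9 of Sscrofa11.1, both on the minus strand, UCP3 at 8378023 to 8389452 and UCP2 at 8358559 to 8364552, with 13470 bases between them. The 250 bases before each RefSeq start are shown, 5′ to 3′ on the gene's strand. UCP3 is read from chr9:8389453-8389702 and UCP2 from chr9:8364553-8364802. Capitals mark TATAAA and AGGTCA, letters that nuclear receptors can bind, on either strand.
UCP3: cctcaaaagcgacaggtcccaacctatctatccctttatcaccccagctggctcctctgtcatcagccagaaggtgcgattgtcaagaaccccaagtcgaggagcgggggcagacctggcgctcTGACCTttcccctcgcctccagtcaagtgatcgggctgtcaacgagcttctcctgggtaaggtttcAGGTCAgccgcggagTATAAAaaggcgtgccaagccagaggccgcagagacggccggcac
UCP2: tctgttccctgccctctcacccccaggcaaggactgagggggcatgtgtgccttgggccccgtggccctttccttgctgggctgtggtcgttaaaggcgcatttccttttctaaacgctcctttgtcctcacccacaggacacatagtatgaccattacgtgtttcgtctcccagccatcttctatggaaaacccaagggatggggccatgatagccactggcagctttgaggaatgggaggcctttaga
The UCP3 window held 1 TATAAA and 2 AGGTCA, which did not overlap, and the UCP2 window held neither. Of 19531 protein-coding promoters of the same length, 9.76% held TATAAA and 12.2% held AGGTCA on either strand. Neither window held CCAAT, which 31.9% of promoters held. The GC box GGGCGG was also absent from both windows and stood in 45.9% of promoters. The cAMP response element TGACGTCA was in neither and stood in 1.70% of promoters. CANNTG occurred 2 times in the UCP3 window and 1 time in that of UCP2, and in 61.9% of promoters. The GC content was 59.2% for UCP3 and 55.2% for UCP2, against a median of 57.6%. These matches are letters in a window and no binding was measured. The RefSeq models hold gaps of under 10 bases between exons, 1 in UCP2 and 2 in UCP3. Their annotated starts were not checked against reads, so a window may not lie at the true start. The part of these letters in the levels of the 2 genes was not tested.

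UCP3 was the most abundant thermogenic gene in each of the 6 pigs. UCP3 (ENSSSCG00000014834), an inner-membrane carrier best known from skeletal muscle, had 2.61 TPM in the lowest pig, a median of 53.5 TPM and 168 TPM in the highest, with a mean of 61.0 ± 60.3 (SD, n = 6). Its rescaled TPM were 194, 332, 642, 78.0, 170.3 and 222 in pigs 1 to 6, with a mean of 273 ± 198 (SD, n = 6). Pig 3 was highest and pig 4 lowest on both scales, and pig 5 was also below the other 4. Without pig 3 the mean was 39.5 TPM. In each library UCP3 ranked between the 85.7th and 98.7th percentile of the named nuclear genes, with a median at 94.6%. The skeletal muscle markers that were found were low. Of 14 such genes 8 were found, 0 of them over 0.1 TPM in all pigs and 3 listed at 0 in at least 1 pig. The defining marker ACTA1, skeletal alpha-actin, had 0.292 to 6.36 rescaled TPM, and the summed level of the 8 was 13.3, 21.6, 6.52, 5.17, 3.96 and 8.09 in pigs 1 to 6. The pig with the most UCP3, pig 3, had 642 rescaled TPM of it and 6.52 of the 8 muscle markers together. The myosin heavy chain genes of the list, MYH1, MYH2, MYH4 and MYH7, were not among the 8 and were not analysed here. The same holds for MB and MYLPF. The part of skeletal muscle in the UCP3 levels was not tested.

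UCP2 was far lower than UCP3. UCP2 (ENSSSCG00000014833), the carrier of this family with the widest tissue range, prominent in immune cells, had 0.081 TPM in the lowest pig, a median of 4.20 and 5.60 in the highest, with a mean of 3.23 ± 2.51 (SD, n = 6). After rescaling it had 14.2, 21.3, 21.4, 4.63, 1.70 and 18.4 in pigs 1 to 6, with a mean of 13.6 ± 8.56 (SD, n = 6). Pigs 4 and 5 were below the other 4, which lay close together. The ratio of UCP3 to UCP2 within a library needs no scaling and was 13.6, 15.6, 29.99, 16.9, 100.1 and 12.1 in pigs 1 to 6. UCP3 was thus higher in 6 of 6 pigs, with a geometric mean ratio of 22.5, and of 16.6 without pigs 4 and 5. The ratio of 100.1 in pig 5 rests on a UCP2 level of 0.081 TPM. Macrophage markers (11 of 11 found, none at 0) summed to 1038, 1034, 1240, 752, 568 and 1307 rescaled TPM in pigs 1 to 6, so they too were lowest in pigs 4 and 5. Of the 11, 6 were below the other 4 pigs in both. So were 50.1% of the named nuclear genes with a mean of at least 1 rescaled TPM, and nothing is read from this count. The part of macrophages in the UCP2 levels was not tested.

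**Figure D1:**
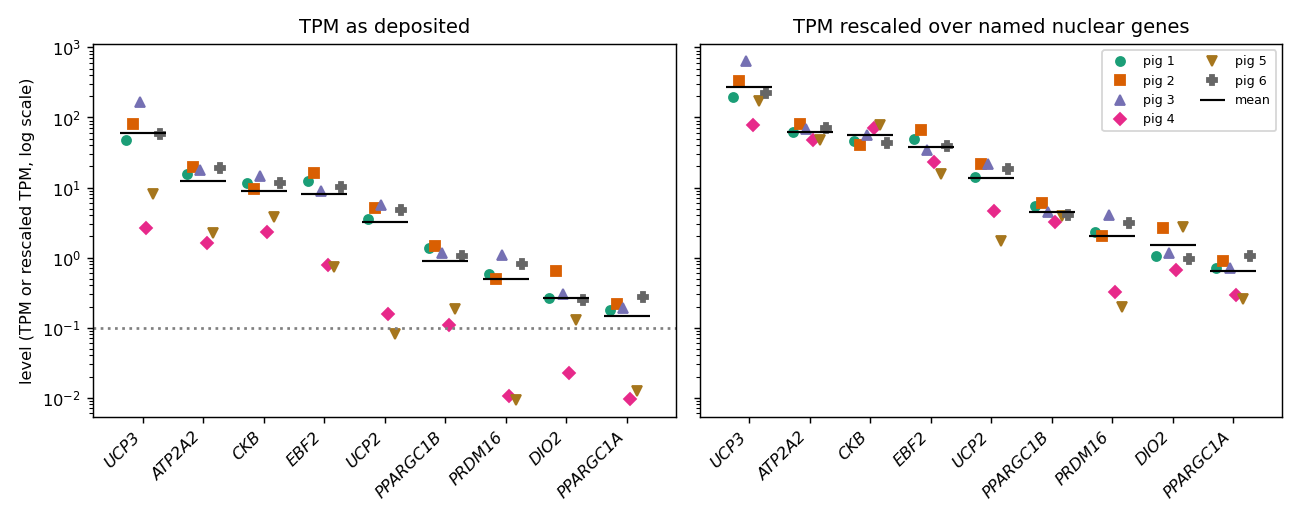
Level of each of the 9 thermogenic genes in each pig as deposited TPM (left) and as TPM rescaled over named nuclear genes (right), both on a log axis, with 1 symbol per pig, a black line for the mean and, on the left, a dotted line at 0.1 TPM. UCP3 leads in every pig and PPARGC1A has the lowest mean, and as deposited pigs 4 and 5 lie below the other 4 for every gene.

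The futile-cycle genes had the smallest rescaled CV of the abundant members, which for CKB depended on the scaling. ATP2A2 (ENSSSCG00000034386, chromosome 14, 31674659 to 31744981), the SERCA2 calcium pump, had 1.61 TPM in the lowest pig, a median of 16.6 and 19.6 in the highest. Its mean was 12.6 ± 8.37 TPM (SD, n = 6). On the rescaled scale it had 61.9, 81.2, 67.8, 48.1, 47.4 and 71.5, with a mean of 63.0 ± 13.4 (SD, n = 6), and the highest pig was 1.71-fold above the lowest. Its rescaled CV, the SD over the mean, was 0.212, the smallest of the members. CKB (ENSSSCG00000021220, on an unplaced scaffold), the brain-type creatine kinase, had 2.34 TPM in the lowest pig, a median of 10.5 and 14.5 in the highest, with a mean of 8.87 ± 4.80 (SD, n = 6). After rescaling CKB had 46.5, 39.9, 55.3, 69.9, 79.3 and 43.5 in pigs 1 to 6, with a mean of 55.7 ± 15.8 (SD, n = 6). CKB was the only member whose rescaled level was above that of every other pig in both pigs 4 and 5. By percentile within the library CKB ranged more widely than UCP3, from 67.1% to 86.3%. ATP2A2 exceeded CKB in 4 of 6 pigs, by 1.23- to 2.04-fold, and lay below it in pigs 4 and 5, at ratios of 0.688 and 0.598.

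The partners of these cycles were read from lists of their pathways. In the creatine cycle 6 of 8 genes were found and 3 were over 0.1 TPM in all pigs. GATM and GAMT, the enzymes that make creatine, had 43.5 ± 22.4 and 25.6 ± 7.71 rescaled TPM (SD, n = 6), and SLC6A8, which imports creatine, had 36.6 ± 20.3. The mitochondrial kinase CKMT2 had 7.85 rescaled TPM, the muscle kinase CKM 1.38 and ALPL, a phosphatase that acts on phosphocreatine in brown fat, 1.23. CKB was thus the leading creatine kinase of those found. In the calcium cycle 12 of 17 genes were found, 8 of them over 0.1 TPM in all pigs. The IP3 receptor ITPR2 led with 132 ± 49.9 rescaled TPM, followed by TMEM41B, a protein of the endoplasmic reticulum, with 82.3 ± 24.1 and the calcium channel ORAI1 with 35.9 ± 18.3 (SD, n = 6). The ryanodine receptor RYR2, through which beige fat is known to release calcium, had 30.9 rescaled TPM. Among the calcium pumps ATP2A2 was followed by ATP2A3 with 9.53 and ATP2A1, the pump of fast muscle, with 0.329. SLN, which uncouples ATP2A1 in muscle, had 0.355 rescaled TPM and was listed at 0 in 1 pig.

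**Figure D2:**
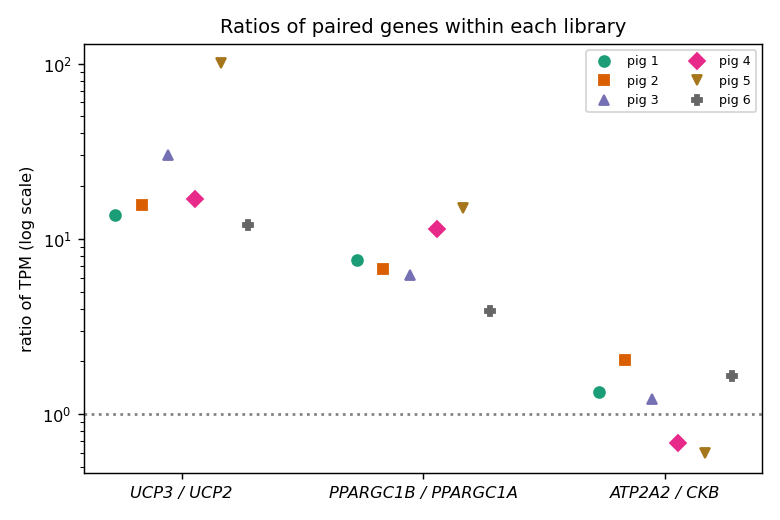
Ratio of TPM within each library for UCP3 to UCP2, PPARGC1B to PPARGC1A and ATP2A2 to CKB, on a log axis with 1 symbol per pig and a dotted line at 1. The first ratio ranges from 12.1 to 100.1 and the second from 3.89 to 15.1, both above 1 in 6 of 6 pigs, while the third is above 1 in 4 of 6. In pig 5 the first 2 ratios rest on 0.081 TPM of UCP2 and 0.0122 TPM of PPARGC1A, under 0.1 TPM.

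The regulators of the beige programme were spread over a wide range. EBF2 (ENSSSCG00000009655, chromosome 14, 9816992 to 10027574), a factor that opens chromatin at brown fat genes in preadipocytes, led them. It had 0.742 TPM in the lowest pig, a median of 9.61 and 15.9 in the highest, with a mean of 8.15 ± 6.18 (SD, n = 6). Its rescaled TPM were 49.1, 65.9, 34.3, 23.5, 15.7 and 38.9 in pigs 1 to 6, with a mean of 37.9 ± 18.0 (SD, n = 6). Pigs 4 and 5 were the lowest and pig 2 the highest. Its relatives EBF1 and EBF3 had 393 ± 120.2 and 50.8 ± 24.3 rescaled TPM (SD, n = 6), so EBF2 was the lowest of the 3 by its mean.

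PRDM16, the cofactor that commits precursors to brown fat, was low and, after rescaling, the most variable member. PRDM16 (ENSSSCG00000021490, chromosome 6, 64704181 to 65012580) had 0.0093 TPM in the lowest pig, a median of 0.536 and 1.07 in the highest, with a mean of 0.498 ± 0.429 (SD, n = 6). Rescaled, it had 2.33, 2.03, 4.11, 0.318, 0.197 and 3.12, with a mean of 2.02 ± 1.54 (SD, n = 6) and a CV of 0.764. The highest pig was 20.9-fold above the lowest after rescaling, the largest such range of the members. Pigs 4 and 5 set the low end, both under the detection threshold of 0.1 TPM as deposited, and the other 4 pigs lay between 2.03 and 4.11. MECOM, the closest relative of PRDM16, had 69.0 ± 27.6 rescaled TPM (SD, n = 6).

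The 2 coactivators of the PGC-1 family were both low. PPARGC1B (ENSSSCG00000014437, chromosome 2, 150823338 to 150924871), which drives mitochondrial gene programmes, had 0.109 TPM in the lowest pig, a median of 1.12 and 1.44 in the highest, with a mean of 0.888 ± 0.59 (SD, n = 6). On the rescaled scale it had 5.43, 5.98, 4.47, 3.27, 3.90 and 4.06, with a mean of 4.52 ± 1.01 (SD, n = 6). PPARGC1A (ENSSSCG00000029275, chromosome 8, 17841844 to 18527953), the cold-induced coactivator, had the lowest mean of the 9 genes. It had 0.0096 TPM in the lowest pig, a median of 0.184 and 0.275 in the highest, with a mean of 0.146 ± 0.11 (SD, n = 6). Its rescaled TPM were 0.718, 0.889, 0.719, 0.289, 0.259 and 1.04, with a mean of 0.653 ± 0.318 (SD, n = 6), which is below the mean of 1 used as a filter elsewhere. PPARGC1B was higher in 6 of 6 pigs, at 7.55, 6.72, 6.22, 11.3, 15.1 and 3.89 times PPARGC1A in pigs 1 to 6. The ratios in pigs 4 and 5 rest on PPARGC1A levels of 0.0096 and 0.0122 TPM, under the detection threshold of 0.1 TPM. The third relative, PPRC1, had 15.8 ± 9.22 rescaled TPM (SD, n = 6).

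DIO2, the deiodinase that makes active thyroid hormone inside brown adipocytes, was highest in pig 5 after rescaling. On that scale the other regulators were lower in pig 5 than in pigs 1, 2, 3 and 6. DIO2 (ENSSSCG00000040638, chromosome 7, 103096414 to 103110749) had 0.0224 TPM in the lowest pig, a median of 0.258 and 0.633 in the highest, with a mean of 0.267 ± 0.207 (SD, n = 6). Its rescaled TPM were 1.06, 2.62, 1.16, 0.672, 2.70 and 0.951, with a mean of 1.53 ± 0.894 (SD, n = 6). Pigs 2 and 5 were alike and high, and pig 4 was lowest. As deposited pig 5 had 0.128 TPM, below pigs 1, 2, 3 and 6, so its high place depended on the rescaling. The other deiodinases had 1.01 (DIO1) and 0.771 (DIO3) rescaled TPM, and the thyroid hormone receptors THRB and THRA had 92.8 and 27.7.

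No member was listed at 0 in any pig. Over 0.1 TPM as deposited, the detection threshold of the study, 5 of 9 members were detected in all 6 pigs (UCP3, ATP2A2, CKB, EBF2 and PPARGC1B), against 67.2% of the named nuclear genes. UCP2 and DIO2 passed it in 5 pigs, and PRDM16 and PPARGC1A in 4, those other than pigs 4 and 5. Without pigs 4 and 5 all 9 passed, and the share of named nuclear genes that did so was not computed. Over 0.1 rescaled TPM all 9 passed in all 6 pigs, against 85.1% of the named nuclear genes. The median of the 9 means was 3.23 TPM or 13.6 rescaled TPM, beside 3.30 TPM and 16.7 rescaled TPM over all named nuclear genes.

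The order of the levels was tested between neighbours. Members next to each other by mean rescaled TPM were compared within each pig, with a two-sided exact permutation test over the 6 pigs (sign flips of the difference in log2(rescaled TPM + 1)), adjusted by Benjamini-Hochberg over 8 pairs. The smallest p this design allows is 0.0312, and 0 of 8 pairs passed an adjusted p of 0.05, while 3 pairs were at that smallest unadjusted p. These 3 kept 1 order in all 6 pigs, each with an exact adjusted p of 0.083. UCP3 lay above ATP2A2 by 1.83 ± 0.82, EBF2 above UCP2 by 1.62 ± 0.71 and PPARGC1B above PRDM16 by 1.05 ± 0.76 on the log2 scale (SD, n = 6). UCP2 lay above PPARGC1B by 1.07 ± 1.12 in 5 of 6 pigs (exact adjusted p = 0.15), and DIO2 above PPARGC1A by 0.57 ± 0.58 in 5 of 6 (exact adjusted p = 0.125). In these and the remaining neighbours the difference was smaller than its SD. CKB lay above EBF2 by 0.64 ± 1.10 (4 of 6 pigs), ATP2A2 above CKB by 0.19 ± 0.69 (4 of 6) and PRDM16 above DIO2 by 0.13 ± 1.09 (3 of 6), with exact adjusted p of 0.333, 0.607 and 0.781.

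**Figure D3:**
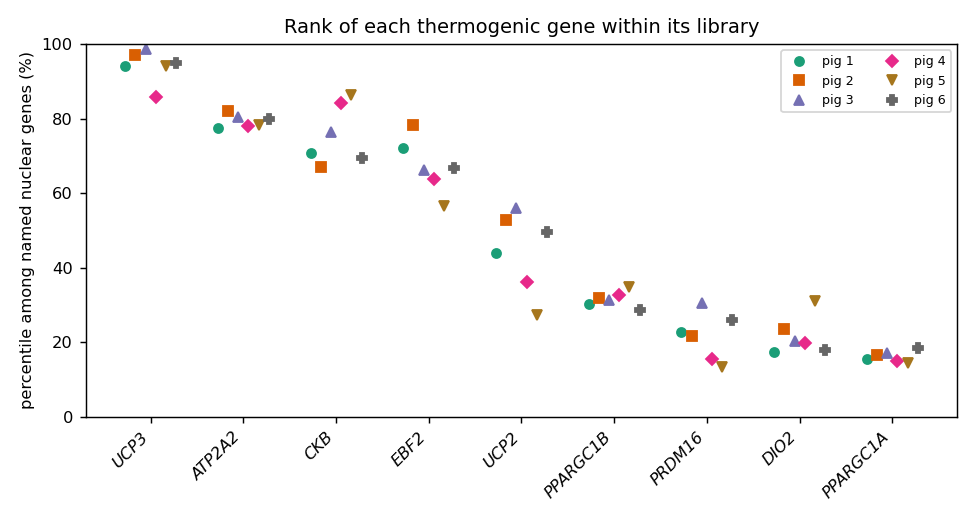
Percentile of each thermogenic gene among the 14844 named nuclear genes of the same library, with 1 symbol per pig. UCP3 lies between 85.7% and 98.7%, ATP2A2 between 77.4% and 82.1%, and PPARGC1A between 14.5% and 18.5%, while UCP2 ranges from 27.2% to 56.0%.

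Ranks within a library do not depend on its scaling. By percentile among named nuclear genes, ATP2A2 moved least of the more abundant members, from 77.4% to 82.1%, and CKB ran from 67.1% to 86.3% and EBF2 from 56.6% to 78.2%. PPARGC1B lay between 28.6% and 34.7% and PPARGC1A between 14.5% and 18.5%, both narrow ranges in the lower part of the named nuclear genes. Narrow percentiles this low do not show a steady level, since rescaled PPARGC1A ran 4.03-fold from the lowest pig to the highest. PRDM16 ran from 13.2% to 30.5% and DIO2 from 17.5% to 30.9%. UCP2 had the widest range, from 27.2% in pig 5 to 56.0% in pig 3.

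Pigs 4 and 5, the libraries with little named nuclear RNA, were compared gene by gene with pigs 1, 2, 3 and 6. Of the 8 members with a mean of at least 1 rescaled TPM, 6 were lower in both than in each of the other 4 pigs, while 50.1% of the 12130 named nuclear genes past the same filter were and nothing is read about the members from this count. Without any filter PPARGC1A was a seventh, at 0.289 and 0.259 against at least 0.718 rescaled TPM. PRDM16 was furthest down, at 11.0% of the mean of the other 4 in pig 4 and 6.79% in pig 5. UCP2 had 24.6% and 9.03%, UCP3 22.5% and 49.0%, and EBF2 49.9% and 33.3%. The PRDM16 values rest on 0.0106 and 0.0093 TPM as deposited, and that of UCP2 in pig 5 on 0.081 TPM. These lie under the detection threshold of 0.1 TPM, so the order of the largest falls is uncertain. ATP2A2 had 68.1% and 67.1%, and PPARGC1B 65.6% and 78.3%. CKB was above the other 4 in both, at 151% and 171%, as were 10.4% of the named nuclear genes. The median rescaled TPM of all named nuclear genes was itself lower in these libraries, 11.7 in pig 4 and 11.2 in pig 5 against 16.1 to 19.3 in the other 4. Median-centring and quantile normalization each left 3 of the 8 members below, EBF2, UCP2 and PRDM16, against 25.4% and 24.9% of the named nuclear genes. CKB was above under both, against 31.2% and 27.8% of those genes, and PPARGC1B too under quantile normalization. The place of UCP3, ATP2A2 and PPARGC1B thus depended on the scaling.

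**Figure D4:**
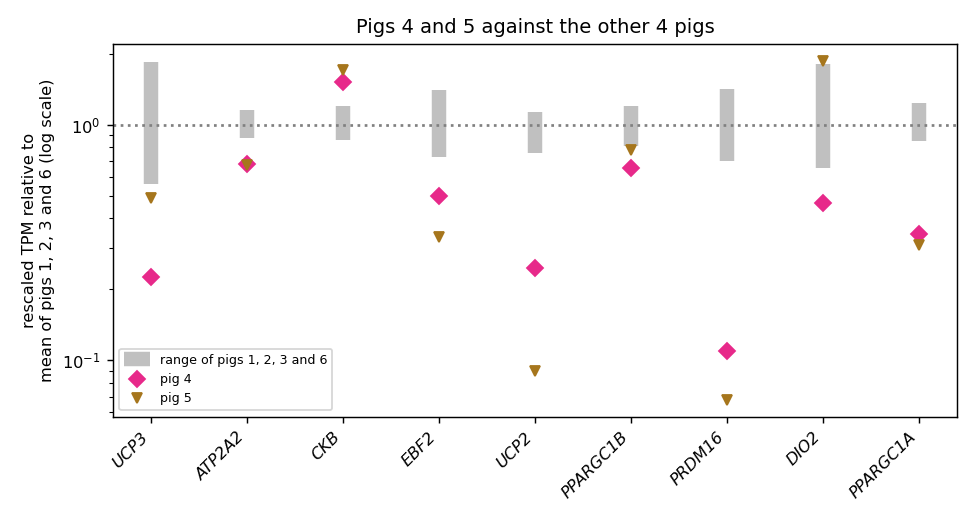
Rescaled TPM of each thermogenic gene in pigs 4 and 5 relative to the mean of pigs 1, 2, 3 and 6, on a log axis, with a grey bar for the range of those 4 pigs and a dotted line at 1. PRDM16 and UCP2 lie furthest below the bar, CKB lies above it in both pigs, and DIO2 lies below it in pig 4 and above it in pig 5. PRDM16 in both pigs and UCP2 in pig 5 were under 0.1 TPM as deposited.

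Summed markers of several cell types were also lower in these libraries. Summed rescaled TPM of endothelial markers (7 of 8 found, none at 0) were 695 in pig 4 and 826 in pig 5 against 1170 to 1500 in the other 4, and those of progenitor markers (5 of 6 found, none at 0) 4747 and 4558 against 5706 to 9049. Neural and Schwann cell markers (7 of 8 found, 2 of them listed at 0 in at least 1 pig) summed to 10.4 and 10.6 against 31.6 to 45.7, and smooth muscle markers (6 of 6 found, none at 0) to 512 and 537 against 653 to 1043. Lymphoid markers (9 of 10 found, none at 0) summed to 70.9 and 58.6 against 83.0 to 157. Adipocyte markers summed to 29927 and 41017 against 21592 to 37393. Some sums lean on 1 gene. FABP4 had 20000 and 28926 in pigs 4 and 5, DCN 4540 and 4365 of the progenitor sums, and PECAM1 449 and 563 of the endothelial ones. TAGLN had 347 and 269 of the smooth muscle sums and was highest in pig 4, and PTPRC had 52.6 and 38.3 of the lymphoid ones. Past the filter, 6 of 7 endothelial and 4 of 5 progenitor markers were below the other 4 pigs in both. So were 3 of 5 neural and Schwann cell, 3 of 6 smooth muscle and 3 of 8 lymphoid markers. Of the 12 adipocyte markers 3 were below the other 4 pigs in both, against 50.1% of the named nuclear genes. Another 3 were above, against 10.4%. Nothing is read from these counts. The part of these cell types in the levels of UCP2, EBF2 and PRDM16 was not tested.

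The median CV between pigs was larger over the thermogenic genes than over the named nuclear genes, as a description. For the 8 members with a mean of at least 1 rescaled TPM, the median CV was 0.767 as deposited and 0.531 rescaled, beside 0.699 and 0.327 over the 12130 named nuclear genes. Not every member was above that value, since ATP2A2, PPARGC1B and CKB had rescaled CV of 0.212, 0.224 and 0.283. Without pigs 4 and 5 the members' median CV as deposited was 0.219, and no such value was computed for the named nuclear genes. The CV were not compared at like levels. Rescaling lowered the CV of all 8, and of 98.1% of the named nuclear genes past the filter. Without pigs 4 and 5, UCP3 and DIO2 had the largest rescaled CV, at 0.590 and 0.544, and that of UCP2 was 0.179. By Dixon's ratio 0 of the 8 had 1 pig far from the others after rescaling, against 4.83% of those genes.

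The genes around the members followed in lists of their pathways. Signal input to thermogenesis was present, with 22 of 24 genes found and 16 over 0.1 TPM in all pigs. The regulatory subunits of protein kinase A, PRKAR2B and PRKAR1A, had 575 ± 113 and 433 ± 67.7 rescaled TPM (SD, n = 6), and the receptor FGFR1 had 92.9 ± 29.5. Of the beta-adrenergic receptors, ADRB1 had 7.09 ± 5.32 rescaled TPM and ADRB3, the receptor that drives brown fat in rodents, had 0.0939 ± 0.116 and was listed at 0 in 2 pigs (SD, n = 6). FGF21, a hormone that induces beige fat, had 0.293 rescaled TPM and its coreceptor KLB 75.6.

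Of the other factors that control the beige programme, 29 of 31 were found and 23 were over 0.1 TPM in all pigs. PPARG, the master factor of adipocytes, led with 453 ± 190.0 rescaled TPM, and EBF1 and CEBPB, an early adipogenic factor, followed with 393 ± 120.2 and 257 ± 55.4 (SD, n = 6). Among estrogen-related receptors, partners of the PGC-1 proteins, ESRRA had 13.5 rescaled TPM, ESRRG 1.01 and ESRRB 0.145. The median of the 29 means was 40.3 rescaled TPM, against 13.6 for the 9 members.

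Of the markers of beige and brown fat, 16 of 21 were found and 9 were over 0.1 TPM in all pigs. PDK4, which restrains pyruvate use, ELOVL6, a fatty acid elongase, and CIDEC, the droplet protein of white adipocytes related to CIDEA, led with 1099.8 ± 449, 824 ± 346 and 650.4 ± 193 rescaled TPM (SD, n = 6). The other genes of the list ran from KCNK3 at 0.120 to LETMD1 at 51.4 rescaled TPM, with CITED1 at 15.8 and COX7A1 at 20.7, and KCNK3 and ELOVL3 were listed at 0 in at least 1 pig. The median of the 16 means was 8.08 rescaled TPM.

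The leading genes of other routes of proton leak and of lipid cycling had higher mean rescaled TPM than UCP2, at 13.6. Not all of them were above UCP3, at 273. Among 6 of 7 carriers found, SLC25A6, SLC25A5 and SLC25A4, the ADP/ATP carriers, which also conduct protons, had 718 ± 88.6, 104 ± 12.5 and 89.8 ± 23.7 rescaled TPM (SD, n = 6), and all 6 were over 0.1 TPM in every pig. SLC25A27 and SLC25A14, also called UCP4 and UCP5, had 17.5 and 11.2. Of the lipid cycle 12 of 13 genes were found, all 12 over 0.1 TPM in every pig. LIPE and PNPLA2, which break down triglyceride, had 990.0 ± 415 and 399 ± 211 rescaled TPM, and DGAT2, which rebuilds it, had 743 ± 372 (SD, n = 6).

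**Figure D5:**
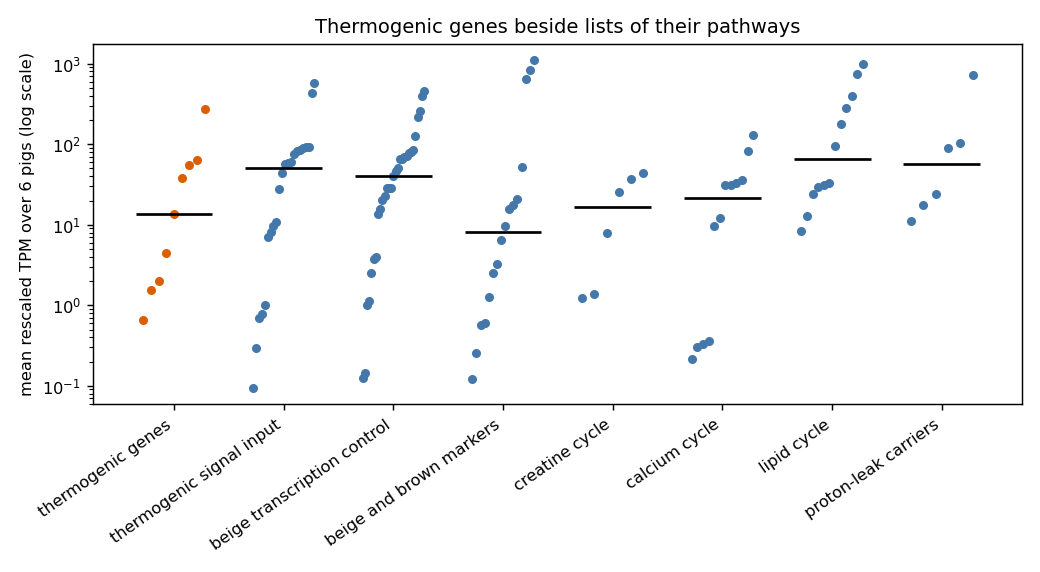
Mean rescaled TPM over 6 pigs, on a log axis, of the 9 thermogenic genes (orange) and of the genes found in each pathway list (blue), with 1 point per gene and a black line at the median of the list. The thermogenic genes have a median of 13.6, between the beige and brown markers at 8.08 and the creatine cycle at 16.7, and the lipid cycle has the highest median at 64.7.

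The pathway genes past the filter of a mean of 1 were also counted in pigs 4 and 5 against the other 4. Lower in both were 8 of 18 for signal input, 17 of 27 for transcription control and 4 of 12 for beige and brown markers. The creatine cycle had 4 of 6, the calcium cycle 6 of 8, the lipid cycle 7 of 12 and the carriers 3 of 6. Of the named nuclear genes 50.1% were lower in both. Higher in both were 2, 3, 3, 0, 1, 0 and 1 genes of the same lists, against 10.4%. Nothing is read about the lists from these counts.

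The genes whose pattern over the 6 pigs was most like that of each member were listed as a description. Likeness was the root mean square distance between log2(rescaled TPM + 1) values, each less its own median, among 12129 genes. For UCP3 the nearest were GFRA2 (0.29), POR (0.30) and TLCD2 (0.33), where UCP3's own distance from its median was 0.93. For UCP2, whose own was 1.30, they were NCKAP5 (0.15), ARHGAP21 (0.18) and SETD1A (0.20). For EBF2 they were ZNF713 (0.095), ERO1A (0.10) and DNM3 (0.10), and for PRDM16 DAB2 (0.10), PPIL6 (0.11) and WBP2 (0.11). For ATP2A2 they were SYNCRIP (0.020), CHUK (0.035) and RFC1 (0.044), for CKB MCCC1 (0.057), RIT1 (0.078) and COMMD8 (0.082), for PPARGC1B SMC2 (0.065), PELI1 (0.071) and SLC35E3 (0.077), and for DIO2 TTK (0.13), FKBP14 (0.15) and ETFRF1 (0.17).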

How the data were processed

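Total RNA of pig backfat was depleted of ribosomal RNA by the authors, made into stranded libraries and quantified with Kallisto 0.43.0, and TPM per gene were deposited by the authors in 1 table per species. The build named for pig is Sscrofa11.1. The annotation release behind the table is not stated. TPM show no depth, so precision comes only from the spread between the 6 pig libraries, which were grouped by their labels as 1 group. The rat table was not used.

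Symbols came from a name table by ID and named 14857 of 25880 pig IDs, 13 of them mitochondrially encoded. TPM were rescaled so that the 14844 named nuclear genes sum to 1000000 per library. The members and lists were chosen with earlier results of these data known. No contrast between groups exists, and the 1 test was the two-sided exact sign-flip permutation test between neighbouring members, checked on simulated data. It was planned for 9 pairs and run on 8, since CIDEA had no value. Ratios within libraries and the leaving out of pigs 4 and 5 were chosen after values were seen. Named genes are all members, the 3 of highest mean rescaled TPM in each pathway list, and the 3 of nearest pattern for members with a mean of at least 1 rescaled TPM. Other list genes that are named were chosen after their values were seen. Alternatives were other scalings (median-centring, quantile normalization, leaving out mitochondrial and ribosomal protein genes), a pseudocount of 0.1, detection over 1 TPM, no filter, medians, and leaving out each pig. Loci and promoters are 1-based RefSeq positions on Sscrofa11.1, matched by symbol for all 10 genes. Python 3.11.15, pandas 2.3.3 and numpy 2.4.6 were used.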

Additional observations from a re-analysis of the deposited data

Results flagged for a closer look

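Of 47 sets of 6 pig values (the members on both scales, the leading genes of each pathway list and the summed markers), 1 had a pig far from the others by Dixon's ratio, where chance alone marks about 1 in 20 sets. PRKAR2B, a regulatory subunit of protein kinase A, had 795 rescaled TPM in pig 3 and 491 to 586 in the other pigs. Pig 3 was also the pig with the most UCP3, at 642 rescaled TPM. No set of a member's values was marked, as deposited or rescaled.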

How the results depend on the processing

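No paired analysis was possible because the pig and rat genes could not be matched, so no test between those groups was run, and the shared numbers pair no animals. The mean TPM of single members moved by more than 1 SD under rescaling for 9 of 9, by a median of 4.65 times, and for 0 of 9 under each of median-centring, quantile normalization and leaving out mitochondrial and ribosomal protein genes, and 0 of 54 when a pig was left out. The SD of UCP3 is as large as its mean, and without pig 3 that mean went from 61.0 to 39.5 TPM. The median level over members, 3.23 TPM as deposited, went to 13.6 on the rescaled scale by construction, and stayed within 1 SD under the other alternatives run. Leaving out 1 pig gave 2.76 to 3.86 TPM, and there too the rule could not show a move. The median CV of 0.767 went to 0.478 after quantile normalization and 0.219 without pigs 4 and 5, while leaving out 1 pig gave 0.576 to 0.874. Members detected in all libraries were 5, 3 over 1 TPM, 9 after rescaling and 9 without pigs 4 and 5, and 5 to 6 with 1 pig left out. The count of neighbouring pairs past the test was 0 under each of the 4 alternatives, in a design that needs 5 of 8 pairs at the smallest p to make any call. Pairs with 1 order in every library were 3, 3 to 4 with 1 pig left out and 5 without pigs 4 and 5. PRDM16 lay below DIO2 (-0.0089 on the log2 scale) with a pseudocount of 0.1, and the difference ran from -0.091 to 0.48 when 1 pig was left out, below 0 without pig 3 and without pig 6 (-0.059). The cause was not tested. Members below the other pigs in pigs 4 and 5 were 6 after rescaling, 3 after median-centring and 3 after quantile normalization. Depth is unknown, so no counting error can be given for the low members PRDM16, DIO2 and PPARGC1A.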

Other observations

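A few pathway genes outside the naming rule, chosen after their values were seen, differed widely between pigs. PCK1, which supplies glycerol for triglyceride cycling, had 92.2 rescaled TPM in pig 2 and 6.20 to 19.4 in the others. NR4A1, an immediate early factor downstream of beta-adrenergic signals, had 217 rescaled TPM in pig 2 and 9.85 to 39.2 in pigs 3, 4 and 5. ADRB1, a beta-adrenergic receptor, had 9.80 to 13.3 rescaled TPM in pigs 1, 2 and 6 and 1.95 to 2.79 in pigs 3, 4 and 5. No explanation was tested for these values.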
